A study of Mus musculus with 40 samples.

Results

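Gene expression after guadecitabine was measured in tumours of B16F10, a mouse melanoma line, grown under the skin of 8-week-old C57black6J mice. Members were chosen by sample title: 6 tumours labelled as guadecitabine-treated and 5 labelled as untreated in the same experiment, 11 of the 40 samples of the series. Guadecitabine was injected into the abdomen; the labels give neither its dose nor the length of treatment nor the sex of the hosts. The labels name no transgene, no deletion and no sorting, so both groups share an unmodified melanoma line in hosts of 1 strain, and each sample holds RNA of tumour and host cells together. The labels also do not say whether the samples of a group came from separate animals; if they did not, the p-values measure only the spread between these samples, which may be technical. The other 29 samples were B16F10 cultures without (4) and with (4) the BET inhibitor OTX015, and tumours of a separate OTX015 experiment without (11) and with (10) that drug.

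Guadecitabine is a dinucleotide that joins decitabine to deoxyguanosine and releases decitabine slowly. Decitabine is phosphorylated by deoxycytidine kinase and enters DNA during replication in place of deoxycytidine. There it traps DNMT1, the enzyme that copies CpG methylation onto the new strand, so that methylation is lost as cells divide. Genes and repeats known to be kept silent by methylation include germline and cancer-testis genes, imprinted genes and endogenous retroviruses, and RNA of the last can start an interferon response. The arrays measured RNA and not methylation.

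Of 45141 probe sets on the array, 28898 named 1 gene, 551 named several, 104 were the manufacturer's controls and 15588 carried no gene name here. Array means lay between 4.57 and 4.62 on the log2 scale. Pearson's r across probe sets between arrays of 1 group lay between 0.967 and 0.992 in controls and between 0.939 and 0.981 in treated tumours. Treated replicates 3 and 6 had the lowest spread of values (SD 1.88 and 1.89). Treated replicate 6 also had the lowest alpha globin (Hba-a1) at 8.32, against 12.2 to 12.6 in the other treated tumours, and the widest gap between the 3′ and 5′ actin control probe sets, 1.09. Values of the melanocyte pigmentation list were high in each tumour, with list means between 9.35 and 10.1, so the label of a melanoma was borne by its markers. A level of 4.46, the 95th percentile of 81 odorant and pheromone receptor probe sets, served as background.

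The upstream sequences of 6 genes are shown because methylation acts on CpG dinucleotides. They belong to the named genes of lowest adjusted p (Epb41l3 and Hrct1), the germline and X-linked cancer-testis genes of largest difference (Rhox5 and Xlr), Xist, and the leading lower gene (Lifr). Each is the 250 bases before the RefSeq start on the gene's strand (assembly GRCm38.p6), with every CpG in capitals; where RefSeq lists several starts, 1 is shown.
Epb41l3 (chr17:69156494-69156743, plus strand): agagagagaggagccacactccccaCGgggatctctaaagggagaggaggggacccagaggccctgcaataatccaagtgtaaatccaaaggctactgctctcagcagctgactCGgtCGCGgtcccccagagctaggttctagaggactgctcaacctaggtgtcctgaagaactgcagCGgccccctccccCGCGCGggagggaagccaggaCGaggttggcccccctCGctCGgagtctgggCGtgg
Hrct1 (chr4:43726948-43727197, plus strand): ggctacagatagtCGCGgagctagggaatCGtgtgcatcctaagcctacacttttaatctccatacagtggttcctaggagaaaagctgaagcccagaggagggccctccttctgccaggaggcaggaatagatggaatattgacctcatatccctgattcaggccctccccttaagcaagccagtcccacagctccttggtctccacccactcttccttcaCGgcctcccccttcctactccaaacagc
Rhox5 (chrX:37754358-37754607, plus strand): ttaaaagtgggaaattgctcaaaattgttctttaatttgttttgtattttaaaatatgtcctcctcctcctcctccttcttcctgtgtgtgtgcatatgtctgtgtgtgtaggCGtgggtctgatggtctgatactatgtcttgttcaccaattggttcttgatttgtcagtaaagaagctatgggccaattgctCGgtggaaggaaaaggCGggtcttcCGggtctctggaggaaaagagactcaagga
Xlr (chrX:53797707-53797956, minus strand): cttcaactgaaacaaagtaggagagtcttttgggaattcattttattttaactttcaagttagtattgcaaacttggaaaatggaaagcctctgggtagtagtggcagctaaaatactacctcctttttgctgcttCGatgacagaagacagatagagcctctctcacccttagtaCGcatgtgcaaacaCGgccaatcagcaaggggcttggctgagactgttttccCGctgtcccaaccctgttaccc
Xist (chrX:103483234-103483483, minus strand): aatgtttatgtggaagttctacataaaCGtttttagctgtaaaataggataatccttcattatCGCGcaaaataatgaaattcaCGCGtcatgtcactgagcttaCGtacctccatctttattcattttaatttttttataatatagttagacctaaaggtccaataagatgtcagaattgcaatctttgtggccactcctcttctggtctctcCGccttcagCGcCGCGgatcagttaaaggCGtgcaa
Lifr (chr15:7129322-7129571, plus strand): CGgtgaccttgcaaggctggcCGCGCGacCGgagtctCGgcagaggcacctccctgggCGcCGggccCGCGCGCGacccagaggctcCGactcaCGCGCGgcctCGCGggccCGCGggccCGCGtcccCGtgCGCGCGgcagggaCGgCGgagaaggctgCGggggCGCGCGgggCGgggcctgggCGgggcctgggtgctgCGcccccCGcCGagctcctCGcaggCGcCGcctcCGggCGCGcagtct
The motif counted was CG, which reads the same on both strands. The printed bases hold 12 CpGs in Epb41l3, 4 each in Hrct1, Rhox5 and Xlr, 11 in Xist and 43 in Lifr. Of all RefSeq upstream windows of this length, 33.5% hold at least 12, 62.2% at least 4, 35.6% at least 11 and 0.712% at least 43. Among the few genes of this paragraph, most of them picked for their differences, the counts did not follow the direction of the difference. Shares by CpG class over genes above background are given further below. Kcnmb4 and Fgfrl1, both higher in treated tumours, hold 43 and 30 CpGs in such a window, Ppip5k1, which was lower, holds 3, and a second RefSeq start of Lifr also has 3. The counts describe sequence only, since methylation was not measured.

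No probe set differed between treated and control tumours at an adjusted p under 0.05 by limma with Benjamini-Hochberg adjustment over all 45141; the lowest adjusted p was 0.120, shared by 3 probe sets. At an unadjusted p under 0.05, 1574 probe sets were higher (3.49%) and 1505 lower (3.33%) in treated tumours. The values of the groups did not overlap for 204 probe sets that were higher (0.452%) and 69 that were lower (0.153%). With each of 17097 genes represented by its brightest probe set, 712 genes were higher (4.16%) and 341 lower (1.99%) at an unadjusted p under 0.05, and 89 (0.521%) and 22 (0.129%) did not overlap. The median difference over genes was 0.04, and 63.2% of genes were above 0; these shares are the background for the list counts below. With all 40 arrays of the series in 1 fit, where the 6 groups share 1 estimate of the spread, 269 probe sets were called higher and 1012 lower. Every difference named below is therefore one that did not pass the adjusted threshold, in the comparison of the 11 arrays, unless an exception is given.

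The 3 probe sets at the lowest adjusted p were all higher in treated tumours. Epb41l3 encodes a band 4.1 protein that links membrane proteins to the cytoskeleton and is known as a gene silenced by methylation in human cancers. Its RMA values were 4.83, 4.97, 5.11, 4.71 and 4.83 in controls and 5.49 at the lowest, 5.58 at the median and 5.83 at the highest in treated tumours. No treated tumour overlapped a control, and the difference was 0.72 ± 0.09 (log2, SE; 1.64-fold; adjusted p = 0.120). Its second probe set differed by 0.61 (3.72 in controls, 4.33 in treated tumours), so both probe sets of the gene were higher.

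Hrct1, which encodes a small histidine-rich protein, had values of 4.40, 4.66, 4.41, 4.57 and 4.49 in controls and of 5.10, 5.24 and 5.57 at the lowest, median and highest of the treated tumours. The groups did not overlap, and the difference was 0.78 ± 0.10 (1.71-fold, adjusted p = 0.120). Hrct1 lay close to background in controls and in cultured cells (4.60 ± 0.12, SD, n = 4). The probe set 1418476_PM_at, which has no gene name here, was at 6.60, 6.59, 6.37, 6.61 and 6.70 in controls and at 7.47, 7.81 and 8.39 at the lowest, median and highest of the treated tumours. Its difference of 1.26 ± 0.15 (2.39-fold, adjusted p = 0.120) had the smallest p of all probe sets. In the unnamed probe set 1416823_PM_a_at the difference was 0.54 ± 0.07, with an adjusted p of 0.156.

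Outside the fit of all 40 arrays, these leaders passed the adjusted threshold only as follows. With all probe sets of a gene averaged before the fit of 17097 genes, Epb41l3 and Hrct1 passed (adjusted p = 0.0491 for both). Hrct1 has a single probe set, so its own values were those of the main fit. With the brightest probe set of each of the same 17097 genes, 0 were called. Without treated replicate 4, 1418476_PM_at passed (adjusted p = 0.0225).

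Among genes above background, 8 others led the higher direction with adjusted p between 0.208 and 0.385, and none of them overlapped between the groups. Cst6, the cathepsin inhibitor cystatin E/M and another gene known to be methylated in human tumours, stood at 5.42, 6.02, 5.61, 5.92 and 5.68 in controls and at 6.42, 6.97 and 7.67 at the lowest, median and highest of the treated tumours (1.28 ± 0.21, 2.44-fold). Kcnmb4, a regulatory subunit of calcium-activated potassium channels, rested at 5.19 to 5.50 in controls and at 5.95 to 6.59 in treated tumours (0.76 ± 0.12). Fgfrl1, an FGF receptor without a kinase domain, ranged from 7.17 to 7.39 in controls and from 7.62 to 8.18 in treated tumours (0.62 ± 0.09), and its second probe set differed by 0.67. These genes were thus higher in 6 of 6 treated tumours by about as much as Epb41l3, with Cst6 showing the largest difference. Def6, a signalling protein of lymphocytes, differed by 0.74 ± 0.11, and Ak1, an adenylate kinase, by 0.75 ± 0.14, though a second, dim probe set of Ak1 differed by 0.03. Tm2d2 differed by 0.57 ± 0.10 in 1 of 5 probe sets and by 0.09 to 0.42 in the others, and Plekhf1, an endosomal protein, by 0.43 ± 0.08. H2-T10, a non-classical MHC class I gene with near-identical relatives whose RNA the probe set may share, differed by 0.65 ± 0.12.

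**Figure D1:**
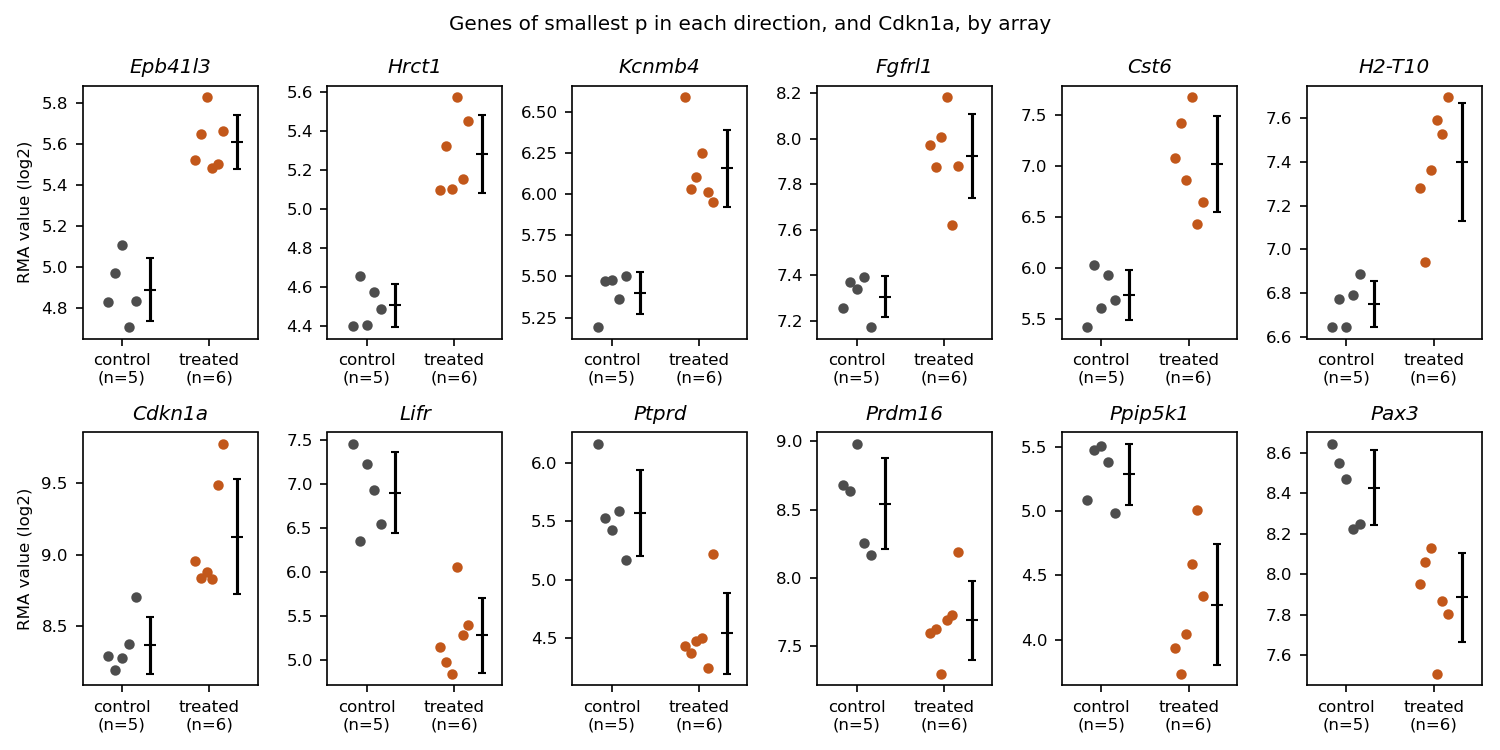
RMA values (log2, vertical axes with separate ranges) of 12 genes in 5 control and 6 guadecitabine-treated tumours; each point is 1 array, with the group's mean and SD in black. The treated points lie wholly above the controls in the upper row and for Cdkn1a, wholly below them for Lifr and Pax3, and meet the lowest control with 1 treated point for Ptprd, Prdm16 and Ppip5k1.

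Lifr led the lower direction. It encodes the receptor subunit that binds LIF and oncostatin M. Its values were 7.46, 6.36, 7.23, 6.93 and 6.54 in controls and 4.84, 5.21 and 6.05 at the lowest, median and highest of the treated tumours. The groups did not overlap, and the difference was -1.62 ± 0.24 (3.08-fold lower, adjusted p = 0.208). The brightest of its 3 probe sets gave this value, and the 2 dim ones, both under background in controls, differed by -0.16 and 0.16. Treated tumours were close to cultured B16F10 cells in this probe set (5.33 ± 0.35, SD, n = 4), and control tumours of the OTX015 experiment ranged from 5.03 to 7.14, across most of the values of both groups. Of 15 measured genes of the LIF, oncostatin M and IL-6 family, Lifr alone was lower at an unadjusted p under 0.05 and none was higher, beside 1.99% and 4.16% of all genes, and the median of the family was 0.06.

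The other 9 leading lower genes above background had adjusted p between 0.331 and 0.575. Ptprd, a receptor tyrosine phosphatase, was at 6.16, 5.53, 5.42, 5.59 and 5.17 in controls and at 4.25, 4.46 and 5.22 at the lowest, median and highest of the treated tumours (-1.03 ± 0.20). Only treated replicate 6 reached the controls. A brighter probe set of Ptprd differed by -1.15, and 2 dim ones by -0.05 and 0.19. Ppip5k1, a kinase of inositol phosphates, ranged from 4.98 to 5.51 in controls and from 3.74 to 5.00 in treated tumours (-1.01 ± 0.21). Prdm16, a zinc finger regulator of transcription, ranged from 8.17 to 8.98 in controls and from 7.30 to 8.19 in treated tumours (-0.86 ± 0.17), and its 3 other probe sets were lower too, by -0.28 to -0.47. In Csnk2a2, a catalytic subunit of casein kinase 2, the difference was -0.82 ± 0.18, and 5 of its 6 other probe sets were lower. Irx5, a homeobox factor, differed by -0.60 ± 0.13, and in both of these genes control replicate 5 was the lowest control by far, at 8.05 and 6.83. Control tumours of the OTX015 experiment averaged 3.28 in Ppip5k1 and 7.23 in Csnk2a2, below the treated means of 4.27 and 7.73. In Prdm16 they averaged 7.66, close to the treated mean of 7.69. In Ptprd and Irx5 they averaged 4.94 and 6.86, between the treated and control means.

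Pax3, a transcription factor of the melanocyte lineage that activates Mitf, did not overlap between the groups: 8.22 to 8.64 in controls against 7.51 to 8.13 in treated tumours (-0.54 ± 0.12). Its 2 other probe sets, of which 1 is brighter, differed by -0.27 and -0.37. Kif11, a spindle kinesin, also did not overlap in the probe set of smallest p (-0.49 ± 0.09), but its brighter probe set differed by -0.06. Ubap2l and Prrc2c, RNA-binding proteins of stress granules, differed by -0.56 ± 0.13 and -0.52 ± 0.11, with smaller differences, between -0.24 and 0.03, in their other probe sets. Control tumours of the OTX015 experiment averaged 7.93 in Prrc2c, below the treated mean of 8.52. In Pax3, Kif11 and Ubap2l they averaged 8.15, 5.13 and 7.26, between the treated and control means. Of the 10 leading lower genes, 5 had groups that did not overlap, against 10 of the 10 leading higher genes. Since these genes were picked by smallest p, the counts describe them and test nothing. Of all probe sets, 0.153% were lower and 0.452% higher without overlap.

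Probe sets without a gene name made up most of the large lower values. At an unadjusted p under 0.05, 427 of 15588 unnamed probe sets were higher (2.74%) and 819 lower (5.25%). Of 28898 naming 1 gene, 1129 were higher (3.91%) and 657 lower (2.27%), beside 3.49% and 3.33% of all probe sets. Above background the shares were 4.08% and 4.71% of unnamed probe sets, against 4.12% and 3.04% of those naming 1 gene. With a difference of at least 2-fold at this p as well, 9 unnamed probe sets were higher and 212 lower, against 20 and 67 named ones. Above background these were 7 and 44 unnamed and 14 and 27 named probe sets. The 2 unnamed probe sets of smallest p in the lower direction were 1441403_PM_at, at 4.56 or more in controls and 4.21 or less in treated tumours (-1.32 ± 0.23, adjusted p = 0.331), and 1431391_PM_at, at 4.28 to 4.96 and 3.59 to 4.12 (-0.81 ± 0.14, adjusted p = 0.331). The groups did not overlap in either, and cultured cells lay lower still or as low as treated tumours (2.89 ± 0.03 and 3.70 ± 0.15, SD, n = 4). Control tumours of the OTX015 experiment also averaged below the treated tumours (2.94 ± 0.15 and 3.46 ± 0.17, SD, n = 11). The highest array outside this experiment read 3.15 and 3.94, under every control of the experiment.

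**Figure D2:**
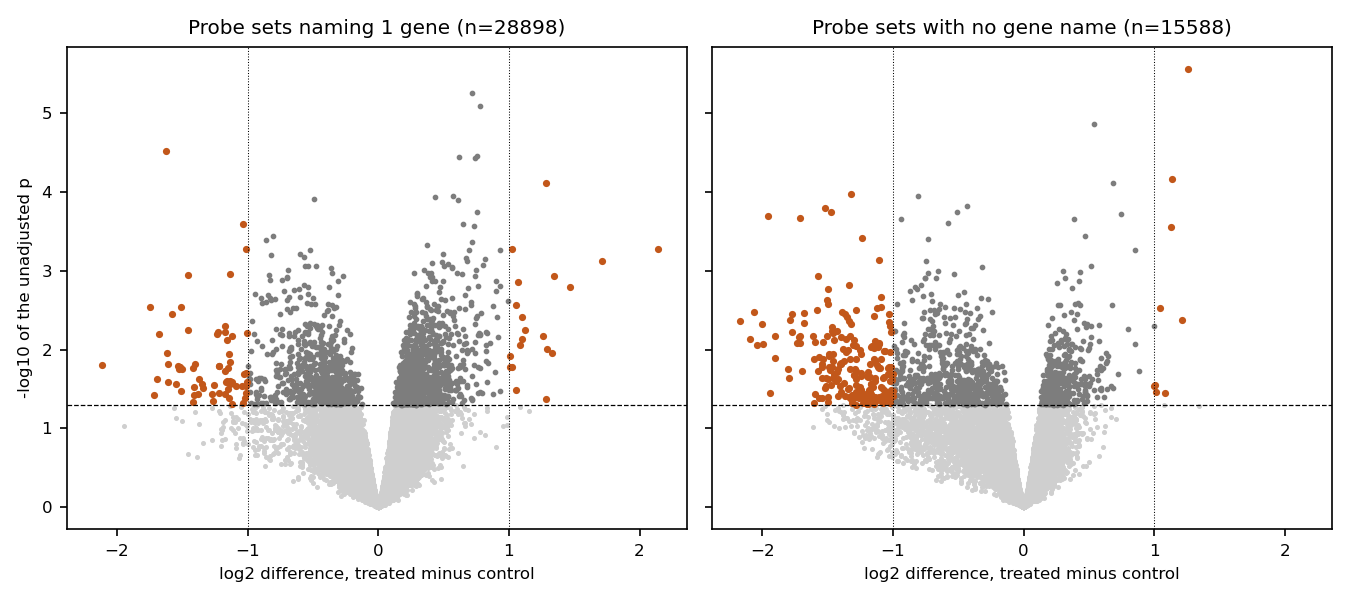
Difference in log2 RMA value (treated minus control) against -log10 of the unadjusted limma p for probe sets naming 1 gene (left, 28898) and without a gene name (right, 15588); each point is a probe set, the dashed line marks p of 0.05, dotted lines mark 2-fold, and orange points lie past both. The orange points number 20 higher and 67 lower on the left and 9 higher and 212 lower on the right.

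The 212 unnamed probe sets were lower in most treated tumours and in 1 control. Their mean was 5.98, 6.43, 6.74, 6.05 and 4.82 in controls 1 to 5, and 3.39 at the lowest, 4.64 at the median and 5.54 at the highest in treated tumours. Control replicate 5 lay among the treated tumours, and treated replicate 2 was the lowest array. Since these probe sets were picked by this difference, the means describe them and test nothing. Of the 212, 44 lay above background over all arrays, 9 did not overlap between the groups, and their mean in cultured cells was 3.36 to 3.47. Nuclear-retained RNA moved with these arrays in part. The mean of Malat1 and Neat1, long noncoding RNAs kept in the nucleus, was 8.75, 8.22, 8.64, 8.76 and 7.17 in controls 1 to 5 and 8.22, 5.83, 6.56, 8.39, 7.60 and 9.04 in treated tumours 1 to 6. Control replicate 5 and treated replicate 2 were the lowest of their groups in both measures, and treated replicate 6 was the highest treated tumour in both. Treated replicate 4, in contrast, had high nuclear RNA (8.39) beside a mean of 4.39 over the 212 probe sets. The part of nuclear or unspliced RNA in the unnamed probe sets was not tested. A fit with this mean as a covariate was counted only over all 45141 probe sets. Of these, 1429 were higher and 1675 lower at an unadjusted p under 0.05, counts that do not set the unnamed probe sets apart.

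**Figure D3:**
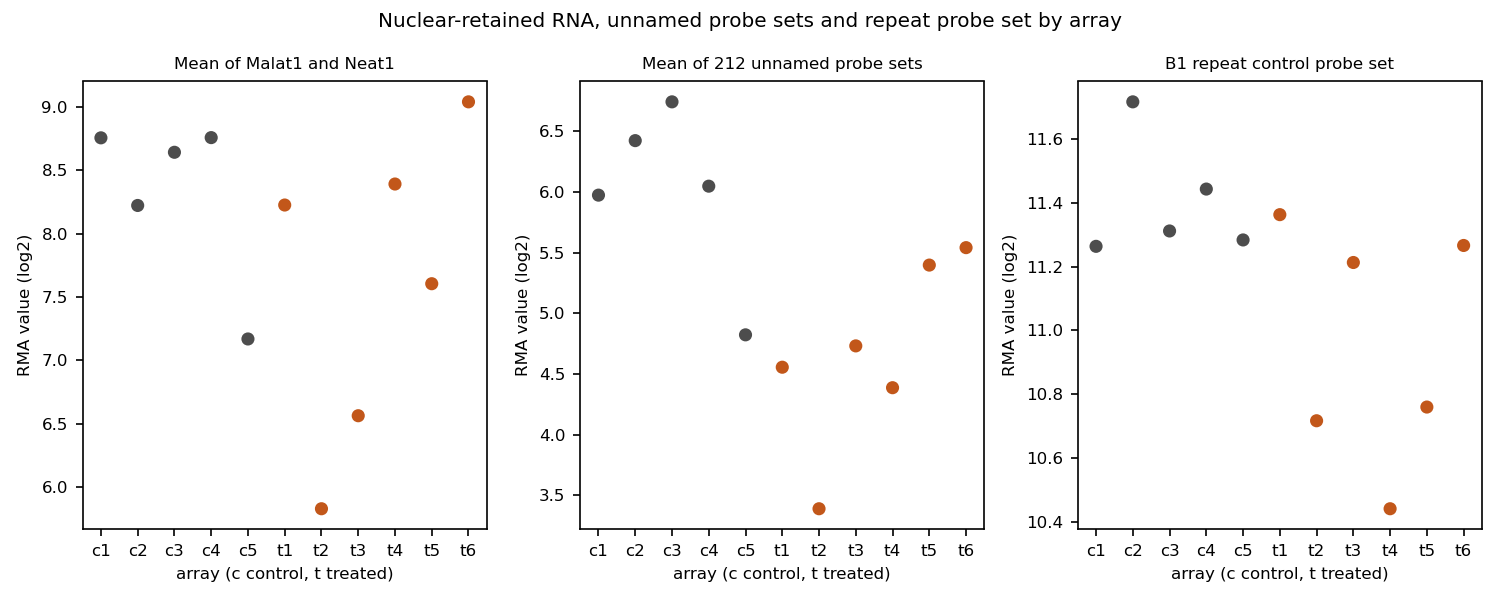
RMA values (log2, vertical axes with separate ranges) of each array: the mean of Malat1 and Neat1, the mean of the 212 unnamed probe sets at least 2-fold lower in treated tumours, and the B1 repeat control probe set; black points are controls (c1 to c5) and orange points treated tumours (t1 to t6). Control 5 and treated 2 are the lowest of their groups in the first panel, at 7.17 and 5.83, and in the second, at 4.82 and 3.39.

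The array's own control probe sets for short interspersed repeats were not higher in treated tumours. The B1 repeat probe set was at 11.4 ± 0.19 (SD, n = 5) in controls and 11.0 ± 0.37 (n = 6) in treated tumours (-0.44 ± 0.17, SE, adjusted p = 0.709). The 2 probe sets for B2 differed by -0.15 ± 0.08 and -0.51 ± 0.20 (adjusted p = 0.743 and 0.709). Of 12 measured genes that descend from retroviruses or retrotransposons, none was past an unadjusted p of 0.05 and 9 were higher, with a median of 0.07. Among 20 measured repressors of retroelements, 3 were lower at an unadjusted p under 0.05 and none higher, beside 1.99% and 4.16% of all genes. Of the 20, 4 were above 0, against 63.2% of all genes, and the median was -0.17. The 3 were Morc2a (-0.43 ± 0.16), a partner of the HUSH silencing complex, Trim28 (-0.28 ± 0.11), the corepressor of KRAB zinc finger proteins, and Ehmt1 (-0.33 ± 0.14), a histone H3 lysine 9 methyltransferase.

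The enzymes that write methylation were not higher in treated tumours. Dnmt1, the drug's target, was at 8.86, 8.32, 8.76, 8.64 and 8.45 in controls and at 7.40, 8.50 and 9.16 at the lowest, median and highest of the treated tumours. The difference of -0.26 ± 0.27 lay within the spread of the treated tumours (95% interval -0.85 to 0.33, adjusted p = 0.845), and it was 0.10 without treated replicates 3 and 6. RNA level does not show how much DNMT1 protein was left. Dnmt3a, a writer of new methylation, differed by -0.40 ± 0.22 (adjusted p = 0.739), and 3 of its 4 other probe sets were lower, down to -0.69. Dnmt3b, its relative, was at 6.09, 6.35, 6.18, 6.34 and 5.64 in controls and at 5.20, 5.62 and 6.13 at the lowest, median and highest of the treated tumours (-0.48 ± 0.18, adjusted p = 0.709). Uhrf1, which guides DNMT1 to half-methylated DNA, differed by -0.50 ± 0.27 (adjusted p = 0.736), and by -0.10 without treated replicates 3 and 6.

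Over the whole list of 19 measured methylation enzymes and readers, 2 were lower at an unadjusted p under 0.05, Dnmt3b and Usp7 (-0.29 ± 0.12), a deubiquitinase that stabilises DNMT1, and none was higher, beside 1.99% and 4.16% of all genes. The list's median was -0.23, and -0.03 without treated replicates 3 and 6. Of 15 measured genes of uptake, activation and breakdown of deoxycytidine drugs, none was past an unadjusted p of 0.05. Dck, the kinase that activates decitabine, differed by -0.0027 ± 0.23 (95% interval -0.51 to 0.50), with a direction that turned between settings. Samhd1, which cleaves the drug's triphosphate, differed by -0.18 ± 0.14 (adjusted p = 0.791), and by -0.44 ± 0.15 in its second probe set (adjusted p = 0.709).

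Germline genes known to be held by promoter methylation were slightly higher as a list, from levels near the floor of the array. Of 25 measured members 24 were higher, against 63.2% of all named genes. At an unadjusted p under 0.05, 4 were higher, beside 4.16% of all genes, and none was lower. The groups did not overlap for 3 members, all higher, beside 0.521% of all genes. The median was 0.09, beside 0.04 over all genes and 0.06 over the 81 receptor probe sets that mark background, of which 63 were higher, so most of the list differed by about as much as genes taken as silent. Only 2 members lay above background over all arrays. The list mean was 2.98, 2.99, 2.95, 2.97 and 3.08 in controls and 3.03 at the lowest, 3.16 at the median and 3.34 at the highest in treated tumours, and only treated replicate 5 lay among the controls.

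Rhox5, an X-linked homeobox gene of germ and placental cells, had the largest difference of the list. Its values were 4.16, 4.30, 4.21, 4.14 and 4.54 in controls and 5.07, 5.03, 5.63, 5.13, 4.50 and 6.88 in treated tumours 1 to 6 (1.10 ± 0.34, adjusted p = 0.683). Treated replicate 6 was the highest and replicate 5 did not leave the range of the controls. Without treated replicates 3 and 6 the difference was 0.66. Cyct, the testis cytochrome c, ranged from 2.52 to 2.77 in controls and from 2.90 to 3.82 in treated tumours (0.55 ± 0.15), and Piwil2, a PIWI protein of male germ cells, from 2.59 to 2.75 and from 2.78 to 3.32 (0.38 ± 0.10). Sycp3, of the synaptonemal complex of meiosis, ranged from 2.43 to 2.80 and from 2.90 to 4.51 (0.62 ± 0.26); it lies outside the naming rule and was chosen after its values were seen. None of these 3 overlapped between the groups, and all 3 stayed below the background level in control means. Dazl, an RNA-binding protein of germ cells, differed by 0.09 ± 0.11.

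Among 12 measured X-linked cancer-testis genes, 10 were higher, 2 at an unadjusted p under 0.05, beside 63.2% and 4.16% of all genes, and none lay above background over all arrays. Xlr, a chromatin-associated gene of lymphoid and germ cells from a family of near-identical copies that its probe set may also read, was at 3.12, 3.36, 3.60, 3.35 and 3.45 in controls and at 4.48, 4.49, 4.45, 3.75, 3.79 and 4.88 in treated tumours 1 to 6 (0.93 ± 0.20, adjusted p = 0.535). The groups did not overlap, and 3 of the 6 treated values sat above 4.46 (4.48, 4.49 and 4.88). Nxf3, an RNA export factor, differed by 0.21 ± 0.08. Trap1a, a tumour rejection antigen, differed by 0.12 ± 0.08 and stayed under 3.20 in each array.

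No imprinted gene of 23 measured was past an unadjusted p of 0.05, and 18 were higher, beside 63.2% of all genes, with a median of 0.08. Meg3, a maternally expressed noncoding RNA, differed by 0.22 ± 0.11. Of 25 measured genes known from human tumours as silenced by promoter methylation, 2 were higher at an unadjusted p under 0.05, beside 4.16% of all genes: Lox (0.26 ± 0.09), an enzyme that crosslinks collagen, and Runx3 (0.23 ± 0.10), a transcription factor of lymphocytes. Both had means under background in controls, and the list's median was 0.07.

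Genes could be sorted by CpG content for those above background, of which 7483 of 9117 (82.1%) matched a RefSeq window of 300 bases around the start. Over all 17097 genes only 79.6% matched, so that check is void for want of windows. Of 765 genes above background with an observed over expected CpG ratio under 0.4, 63 were higher (8.24%) and 20 lower (2.61%) at an unadjusted p under 0.05. Of 3831 genes with a ratio over 0.8, 121 were higher (3.16%) and 134 lower (3.50%). The class between them held 2887 genes, 130 higher (4.50%) and 71 lower (2.46%). Medians were 0.07, 0.03 and -0.02 from the poorest to the richest class. Median control levels rose in the same order, 5.41, 6.47 and 6.78, so CpG content and level moved together, and their parts were not tested.

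**Figure D4:**
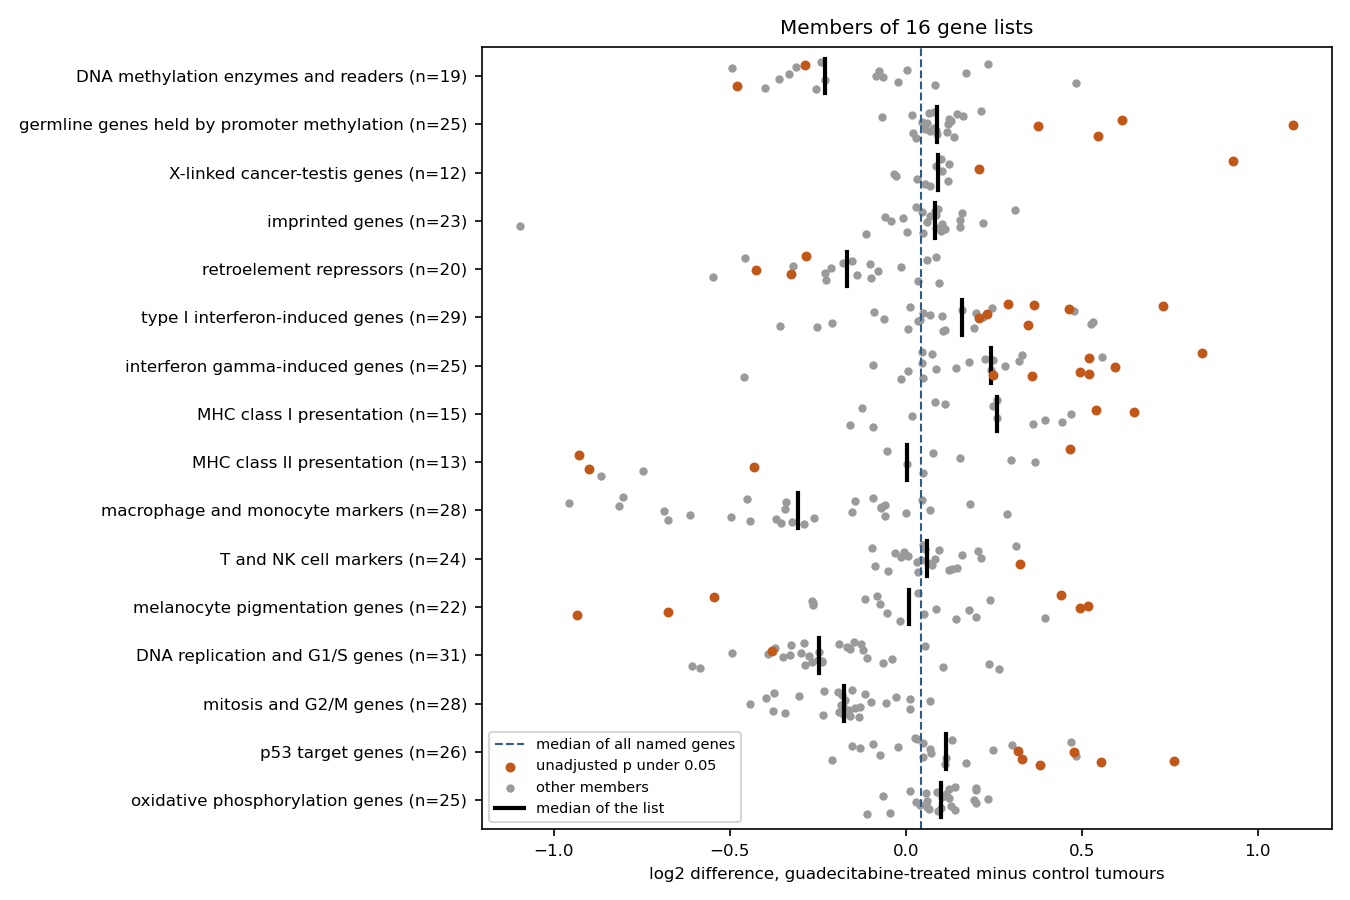
Log2 difference (treated minus control, horizontal axis) of each measured member of 16 gene lists; orange points are members at an unadjusted limma p under 0.05, grey points the others, black bars the list medians, and the dashed line the median of all named genes (0.04). The medians of the DNA methylation, macrophage and G1/S lists lie at -0.23, -0.31 and -0.25, and those of the interferon gamma and MHC class I lists at 0.24 and 0.26.

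Most of the measured interferon-induced genes had higher values in treated tumours. Of 29 measured type I interferon-induced genes, 7 were higher at an unadjusted p under 0.05, a step that 4.16% of all genes reached, and none was lower, and 24 were above 0, against 63.2% of all genes, with a median of 0.16. Usp18, a negative regulator of the interferon receptor, was at 4.36, 4.42, 4.48, 4.58 and 5.33 in controls and at 4.54, 5.32 and 5.94 at the lowest, median and highest of the treated tumours (0.73 ± 0.26, adjusted p = 0.709). Control replicate 5 lay among the treated tumours for Usp18, as it did for Ifit1 (5.79, against 4.41 to 5.04 in the other controls). Ifit1, a sensor of viral RNA caps, differed by 0.53 ± 0.29 (adjusted p = 0.739). Sp100, a nuclear body protein, differed by 0.46 ± 0.14, and Xaf1, a regulator of apoptosis, by 0.36 ± 0.12.

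Of 25 measured interferon gamma-induced genes, 7 were higher and none lower at an unadjusted p under 0.05, beside 4.16% and 1.99% of all genes. Above 0 were 22, against 63.2% of all genes, and the median was 0.24. Tgtp1, a GTPase with near-identical copies, was at 5.07, 6.17, 6.56, 5.39 and 6.30 in controls and at 6.12, 6.78 and 7.24 at the lowest, median and highest of the treated tumours (0.84 ± 0.29). Psmb8, a catalytic subunit of the immunoproteasome, differed by 0.52 ± 0.19, and Cxcl11, a chemokine for T cells, by 0.36 ± 0.14. The other probe set of Psmb8 differed by 0.17, and that of Cxcl11 by -0.11. No member of the 2 interferon lists had groups that did not overlap. The list means overlapped as well, from 4.57 to 4.84 in controls and from 4.76 to 5.17 in treated tumours for interferon gamma. Without treated replicates 3 and 6 the medians were 0.16 and 0.20.

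Genes that sense nucleic acids were split. Ddx58, the RNA sensor RIG-I, was at 5.78, 5.62, 5.76, 5.82 and 6.21 in controls and at 6.17, 6.23 and 6.53 at the lowest, median and highest of the treated tumours (0.47 ± 0.11, adjusted p = 0.605). Only control replicate 5 reached the treated tumours, and the 2 other probe sets of Ddx58 differed by 0.10 and 0.15. Cgas, the DNA sensor, was lower (-0.36 ± 0.14), as was Irf3 (-0.28 ± 0.11), the factor both sensors activate. The other probe set of Cgas differed by -0.12, and the 2 others of Irf3 by -0.05 and 0.05. Of the 16 measured genes of the list, 2 were higher and 3 lower at an unadjusted p under 0.05, beside 4.16% and 1.99% of all genes.

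In MHC class I presentation, 2 of 15 measured genes were higher at an unadjusted p under 0.05, H2-T10 and H2-T23 (0.54 ± 0.19), another non-classical gene, and none was lower; 4.16% of all genes were higher by this measure. The median was 0.26, the list mean of treated replicate 4 stood out at 7.59 against 6.47 to 6.90 in the other treated tumours, and 12 of 15 genes were above 0, beside 63.2% of all genes. In MHC class II presentation 1 of 13 genes was higher and 3 were lower, beside 4.16% and 1.99% of all genes. Ifi30, a lysosomal reductase that prepares antigens, differed by 0.47 ± 0.20. H2-Eb1 and H2-Ab1, chains of the class II molecules, differed by -0.93 ± 0.41 and -0.43 ± 0.19. H2-Eb1 was 4.51 and 4.57 in treated replicates 3 and 6 and 5.65 to 6.87 in the other treated tumours, against 6.38 to 6.81 in controls.

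Markers of macrophages and monocytes were lower in part of the treated tumours. Of 28 measured markers 5 were above 0, against 63.2% of all genes, with a median of -0.31, and none was past an unadjusted p of 0.05. Their mean level was 5.38, 5.30, 5.46, 5.42 and 5.70 in controls and 4.98, 5.65, 4.39, 5.69, 5.38 and 4.83 in treated tumours 1 to 6. Treated replicates 3 and 6 were the lowest, and without them the median was -0.02. Cd68, a lysosomal marker of macrophages, differed by -0.61 ± 0.31, and Adgre1, which encodes F4/80, by -0.29 ± 0.19. In these bulk samples fewer cells of a type and less RNA per cell cannot be told apart.

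Most lymphocyte markers lay near the floor of the array. The counts of this paragraph at an unadjusted p under 0.05 stand beside 4.16% of all genes that were higher and 1.99% that were lower. Of 24 measured T and NK cell markers 2 were above background over all arrays, and 1, Cd6 (0.32 ± 0.13), was higher at an unadjusted p under 0.05. Cd3e, of the T cell receptor complex, differed by 0.13 ± 0.15, with values of 5.98 to 6.72 in these tumours. Its probe set read 5.81 ± 0.08 (SD, n = 4) in cultured B16F10 cells, so its level cannot be read as that of T cells alone. Cd8a, of cytotoxic T cells, differed by 0.06 ± 0.09, with a level between 3.39 and 3.75 in each array. No B or plasma cell marker of 9 was past an unadjusted p of 0.05. The same was true of 13 neutrophil, 19 endothelial and pericyte, 10 adipocyte and 8 erythroid genes. Among 10 mast cell markers 3 were higher, Gata2 (0.33 ± 0.10), Fcer1a (0.18 ± 0.07) and Hdc (0.17 ± 0.07), and 1 was lower, Kit. Control and treated means of Fcer1a (2.60 and 2.78) and Hdc (3.52 and 3.69) were under background. Gata2 read 5.08 ± 0.14 (SD, n = 4) in cultured B16F10 cells. The lowest difference of the mast cell list, -0.94, was also the lowest of the pigmentation list. Of 10 dendritic cell markers 1 was lower, Ccl22 (-0.24 ± 0.08). Among 21 fibroblast and collagen genes 2 were higher, including Dpt (0.31 ± 0.10), and 2 lower, S100a4 (-0.78 ± 0.23) and Col1a2 (-0.41 ± 0.14). The probe sets of Dpt (4.11 and 4.42) and Col1a2 (3.24 and 2.83) were under background in control and treated means. Of the 21 genes, 16 were above 0, against 63.2% of all genes, with a median of 0.18. Treated replicate 4 had the highest list mean (5.22, against 4.31 to 4.33 in the other treated tumours). Single genes were higher among 18 skeletal muscle (Casq1), 15 keratinocyte (Lgals7) and 9 Schwann cell and nerve markers (Ncam1), and none lower. Lgals7 was under background in control and treated means (3.35 and 3.72). Ncam1 read 7.67 ± 0.33 (SD, n = 4) in cultured B16F10 cells, above its control and treated means (6.25 and 7.13). Its level thus cannot be read as that of Schwann cells alone.

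Chemokines and inflammatory cytokines moved both ways, with 3 of 34 measured genes higher and 4 lower at an unadjusted p under 0.05, beside 4.16% and 1.99% of all genes. Il1rn, the antagonist of the interleukin 1 receptor, was at 5.27, 5.20, 5.58, 5.64 and 5.70 in controls and at 4.08, 4.85 and 5.07 at the lowest, median and highest of the treated tumours (-0.74 ± 0.17, adjusted p = 0.577). Tgfb1, a cytokine that restrains lymphocytes, was at 4.53, 4.35, 4.17, 4.50 and 4.79 in controls and at 4.80, 4.96 and 5.84 in treated tumours by the same order (0.61 ± 0.18). Both genes had groups that did not overlap, in opposite directions. The 2 other probe sets of Il1rn differed by -0.18 and 0.03. Of 26 immune checkpoint genes, 1 was higher, Nt5e (0.29 ± 0.13), an enzyme that makes adenosine, and its 2 other probe sets differed by -0.04 and 0.02. Cd274, which encodes PD-L1, differed by -0.01 ± 0.18 (95% interval -0.41 to 0.38), and its direction turned between settings.

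Of 26 measured p53 targets 6 were higher and none lower at an unadjusted p under 0.05, beside 4.16% and 1.99% of all genes, and the median was 0.11. Cdkn1a, the inhibitor of cyclin-dependent kinases known as p21, was at 8.29, 8.19, 8.27, 8.37 and 8.70 in controls and at 8.83, 8.92 and 9.78 at the lowest, median and highest of the treated tumours (0.76 ± 0.18, adjusted p = 0.605). All 6 treated tumours lay above all 5 controls, and the second probe set differed by 0.65. Phlda3, a repressor of AKT, differed by 0.48 ± 0.12, and Ccng1, cyclin G1, by 0.55 ± 0.20.

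Proliferation genes lay lower than in controls in 2 treated tumours and not in the other 4. Of 31 measured genes of replication and the G1/S step 4 were above 0, against 63.2% of all genes, with a median of -0.25, and 1, Orc1 (-0.38 ± 0.16), of the origin recognition complex, was lower at an unadjusted p under 0.05. Of 28 mitotic genes 3 were above 0 with a median of -0.18, and none was past that p. The G1/S mean was 6.97 to 7.31 in controls, 6.27 and 6.17 in treated replicates 3 and 6, and 7.57 and 7.37 in treated replicates 2 and 4, with replicates 1 and 5 inside the range of the controls. Without those 2 arrays the medians were 0.14 and 0.18, with the opposite sign. Mki67, which marks cycling cells, was at 8.23 to 10.05 in treated tumours and at 9.03 to 10.03 in controls (-0.40 ± 0.30).

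Pigmentation genes were divided, 3 higher and 3 lower of 22 at an unadjusted p under 0.05, beside 4.16% and 1.99% of all genes, with a median of 0.01. Tyr, the first enzyme of melanin synthesis, was at 10.54, 10.16, 9.99, 10.29 and 10.19 in controls and at 10.26, 10.53 and 11.37 at the lowest, median and highest of the treated tumours (0.44 ± 0.18, adjusted p = 0.716), and its 2 other probe sets differed by 0.47 and 0.48. Mitf, the factor that drives pigmentation genes, was at 10.98, 10.52, 10.72, 10.98 and 10.78 in controls and at 9.38, 10.17 and 10.88 in treated tumours by the same order (-0.68 ± 0.23, adjusted p = 0.709), and its other probe set differed by -0.82. Trpm1, a channel gene that Mitf activates, did not overlap, at 9.50 to 9.88 in controls and 8.68 to 9.40 in treated tumours (-0.55 ± 0.14), but its other probe set differed by 0.05. Myo5a, a motor of melanosomes, differed by 0.49 ± 0.15, and by -0.28 and 0.16 in its 2 other probe sets. Mitf and Pax3 thus lay lower and Tyr higher in each of their probe sets, while the probe sets of Trpm1 and of Myo5a differed in sign.

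Other tumour programmes had few members past the unadjusted threshold, which 4.16% of all genes passed in the higher and 1.99% in the lower direction. Of 25 Polycomb genes 1 was higher and 4 lower, including Jarid2 (-0.56 ± 0.17) and Cbx6 (-0.57 ± 0.18), parts of the repressive complexes. Of 14 histone genes 2 were higher, H1f2 (0.83 ± 0.32) and H2bc4 (0.60 ± 0.23), and 1 lower, Macroh2a1 (-0.31 ± 0.07), a variant of silent chromatin whose groups did not overlap. Of 23 dedifferentiation and mesenchymal genes 3 were higher, including Ccn2 (1.10 ± 0.30), a matrix protein that YAP induces. Of 21 immediate early genes 3 were higher and 1 lower, with Egr1 at 1.05 ± 0.43, carried by treated replicates 2 and 5 (6.71 and 7.04, against 3.89 to 5.21 in the other arrays), and Nr4a3 at -1.22 ± 0.36. In the stress response list 2 of 24 were higher, Ppp1r15a (0.61 ± 0.22) and Atf5 (0.52 ± 0.21). Of 22 hypoxia and glycolysis genes 1 was higher, Slc2a3, and of 26 ribosome biogenesis genes 1 was lower, Nop56. None of 25 oxidative phosphorylation genes was past the threshold, although 22 were above 0, against 63.2% of all genes.

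Xist, the noncoding RNA that coats the inactive X chromosome of female cells, had the largest difference among named genes. It was at 5.17, 5.12, 5.04, 4.92 and 5.11 in controls and at 7.06, 6.23, 6.61, 7.26, 6.79 and 9.36 in treated tumours 1 to 6. The groups did not overlap, and the difference was 2.15 ± 0.45 (4.42-fold, adjusted p = 0.535), with treated replicate 6 far above the other 5. Without that array Xist passed the adjusted threshold (adjusted p = 0.0452). Its 2 other probe sets differed by 1.29 and 1.28. In cultured B16F10 cells, 4.51 to 5.17, the level was that of the control tumours, whereas the control tumours of the OTX015 experiment lay between 6.13 and 7.57. The 5 controls thus stood with the cells and the treated tumours with or above the other tumours.

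**Figure D5:**
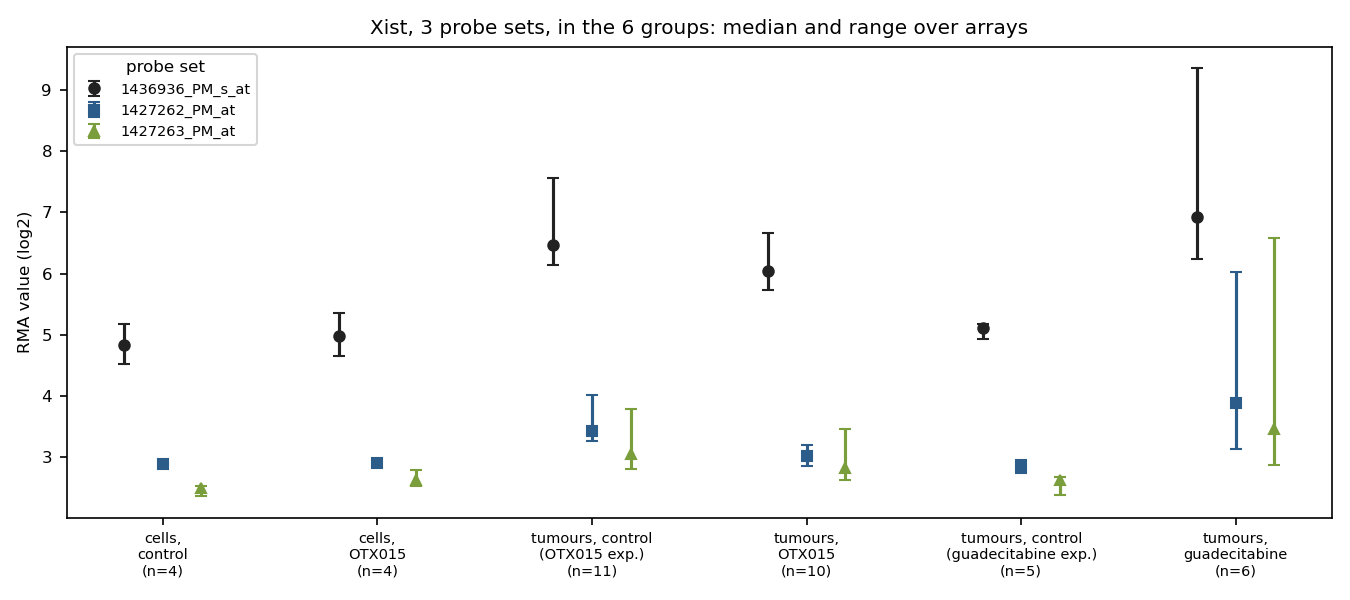
RMA values (log2, vertical axis) of the 3 Xist probe sets in the 6 groups of the series; symbols are medians and bars run from the lowest to the highest array. In the brightest probe set the controls of the guadecitabine experiment lie at 4.92 to 5.17 and the treated tumours at 6.23 to 9.36.

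Values of the probe sets of Eif2s3y, Uty, Kdm5d and Zfy1, genes of the Y chromosome, were below background in each array of the series. Of 2 probe sets of Sry, the testis-determining gene, 1 was below 2.84 in each array and differed by 0.11, and the other, of a kind that can bind related sequences, had group medians of 4.60 to 4.97 and differed by -0.02. In 1 of 2 probe sets of Eif2s3y, which encodes a translation factor, controls lay at 2.51 to 2.64 and treated tumours at 2.19 to 2.43 (-0.27 ± 0.06, adjusted p = 0.575), without overlap, and no other group exceeded 2.38. The second differed by -0.01. Zfy1, a zinc finger gene, was higher in treated tumours, with medians of 3.34 and 3.15 (0.21 ± 0.07). Its groups did not overlap either, though narrowly, with the highest control at 3.231 and the lowest treated tumour at 3.233. The probe sets of Kdm5d and Uty differed by -0.03 to 0.14. Because the labels give no sex of hosts or line, a response of Xist to the drug and a difference in the hosts of the 2 groups cannot be told apart.

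Set against the whole series, few probe sets had treated values beyond the range of every other array. In 7 of 45141 probe sets (0.0155%) all 6 treated arrays lay above all 34 others, and in none below. This count was added after the data had been seen. The 7 were 1418476_PM_at, Epb41l3, Hrct1, Fgfrl1, Xlr, Tinagl1 and 1436948_PM_a_at. Tinagl1, a secreted protein of the matrix, ranged from 9.15 to 10.2 in treated tumours and averaged 8.44 in their controls (1.03 ± 0.21, adjusted p = 0.535). The unnamed 1436948_PM_a_at ranged from 3.76 to 4.89 in treated tumours, against 3.73 at most elsewhere (0.86 ± 0.18, adjusted p = 0.535). Epb41l3 was 4.46 ± 0.14 in cultured cells (SD, n = 4) and 4.96 ± 0.34 in the control tumours of the OTX015 experiment (n = 11), and Rhox5 was 4.38 ± 0.14 and 4.53 ± 0.22 in those groups. Cst6 and H2-T10, in contrast, were as high in cultured cells (6.93 ± 0.23 and 7.36 ± 0.12) as in treated tumours.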

How the data were processed

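RNA of 11 tumours was measured on Affymetrix HT MG-430 PM arrays, 1 per sample, from 500 ng of RNA each per the labels' protocols. The authors deposited log2 values for 45141 probe sets, for which the submitters' processing notes name RMA and the Transcriptome Analysis Console without versions. RMA subtracts background, gives the arrays of a run the same distribution and summarises each probe set. The run that each array belonged to is not stated in the labels. All columns of the table could be mapped to samples. Arrays give no read depth, so their number limits the precision.

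Treated and control tumours were compared in R 4.3.3 by limma 3.58.1, two-sided, using lmFit and eBayes with defaults, on the deposited values, with Benjamini-Hochberg adjustment over all probe sets and a threshold of 0.05. Unadjusted p-values serve only to count and order. Probe sets were named through the array annotation held by GEO, and RefSeq (GRCm38.p6) gave current symbols by gene number and the promoter windows. A gene of a list is represented by the probe set of highest mean over all 40 arrays that names it alone. A difference is followed by its standard error.

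Named were fixed genes of the drug's action and of immune and melanocyte cells, the 10 higher and 10 lower genes of smallest p above background in at least 1 group (by the probe set of smallest p, without predicted genes), 2 unnamed probe sets in each direction, and up to 3 members of each of 43 lists by smallest p. Fixed genes without a probe set of their own, among them Cda and Isg15, are not reported. The members and lists were chosen with earlier results of these data known. The fit was tested on simulated data. Alternatives were centring, quantile normalization, leaving out dim probe sets, means per gene, a robust variance trend, a fit of all 40 arrays, weights per array, looser thresholds, blocking on the replicate number and omission of single arrays.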

Additional observations from a re-analysis of the deposited data

Results flagged for a closer look

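Single arrays stood far from the rest of their group in 6 of 86 groups of values examined by Dixon's test; chance alone marks about 1 in 20. Treated replicate 6 was the highest treated tumour for Ptprd (5.22, against 4.25 to 4.51 in the others) and for Xist (9.36, against 6.23 to 7.26), and the lowest for Hba-a1, alpha globin (8.32, against 12.2 to 12.6). Control replicate 5 was the lowest control for Irx5 (6.83, against 7.35 to 7.37) and for Csnk2a2 (8.05, against 8.60 to 8.75). Treated replicate 3 was the highest treated tumour for Dazl (3.19, against 2.74 to 2.87), at a level below background.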

How the results depend on the processing

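Of 2387 recomputed differences of named genes and probe sets, 2324 kept their direction and their side of the threshold, 44 passed it newly, 40 of them with all 6 groups in 1 fit, and 19 turned. No probe set was called under the other settings except in these cases. With all 6 groups of 40 arrays in 1 fit 269 were called higher and 1012 lower (2841 and 3354 at an unadjusted p under 0.05), with gene means 2 were called higher, and at an adjusted p under 0.2 4 were. Leaving out 1 array gave 0 to 1 called higher (1418476_PM_at without treated replicate 4, Xist without treated replicate 6), 981 to 2553 higher and 802 to 2794 lower at an unadjusted p under 0.05; the extremes came without control replicate 3 and treated replicate 5 for higher, and without control replicates 3 and 5 for lower, and without control replicate 2 the counts were 993 and 979. Those counts were 525 and 552 with only probe sets above background, 673 and 340 with 1 probe set per gene, 730 and 395 with gene means, and 2851 and 2833 with array weights. Above background, 85 probe sets that were higher and 38 that were lower did not overlap. The replicate number did not pair the samples (correlations of same-numbered deviations from -0.58 to 0.07); the replicate block left 0 called, with 1204 higher and 1352 lower at an unadjusted p under 0.05. Dck turned to 0.0017 with median centring, 0.0325 with quantile normalization, 0.138 with array weights, 0.121 with the replicate block and 0.291 without the 2 arrays of lowest spread, and lay between -0.146 and 0.121 without single arrays. Cd274 turned to 0.0641 with quantile normalization and 0.108 with the mean of Malat1 and Neat1 as covariate, and lay between -0.154 and 0.0780 without single arrays. Cd8a became -0.0037 with that covariate, and without the 2 arrays of lowest spread Dnmt1 became 0.10 and Cd3e -0.0475. The last 2 settings were chosen after seeing the data. Without both arrays of lowest spread (treated replicates 3 and 6) the medians of the ribosome biogenesis and drug handling lists became 0.09 and 0.14, from -0.14 and -0.03. The cause was not tested.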
